A study of Mus musculus with 18 samples.

Results

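The regions described here are 449 bins of 200 bp that held PU.1 reads at 12 hours post-induction (hpi) but few at 0, 24 and 48 hpi, out of 12361722 bins on mouse chromosomes 1 to 19. Reads of each PU.1 library were scaled to 10000000, and bins were chosen by these levels: a bin was taken when it had 12 or more scaled reads at 12 hpi and 4 or less at each of the other 3 time points. The PU.1 library of 3 hpi and all C/EBPα and C/EBPβ libraries had no part in the choice. Among the 69571 bins with 12 or more reads at 12 hpi, 0.645% met the rule. Since the rule was set on measured values, the levels at 0, 12, 24 and 48 hpi are given as a description and are not tested.

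The libraries came from C10 cells, a pre-B cell line derived from HAFTL cells that carries C/EBPα fused to the estrogen receptor and GFP (C/EBPαER-GFP). All samples carried the fusion. β-estradiol (β-Est) moved it into the nucleus in cells grown with IL-3 and CSF-1, control cells received ethanol, and the cells turned into macrophage-like cells (iMΦ). Chromatin was immunoprecipitated with antibodies to PU.1 at 0, 3, 12, 24 and 48 hpi, to C/EBPβ at the same times, and to C/EBPα at these times and at 10, 30 and 60 min. C10 is a single derived line, so its values cannot be told apart from features of that line, and the amount of β-Est differs between the labels and the methods of the study. There was 1 library for each factor and time, so no test between time points was possible, and the 95% intervals given here cover counting error only.

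PU.1 is an ETS family transcription factor that B cells and macrophages both need, with higher amounts in macrophages, and it binds purine-rich DNA around GGAA. It holds many enhancers in an accessible state and often works beside other factors, among them C/EBPα, a bZIP factor that drives myeloid differentiation, and IRF4 or IRF8 in B cells. C/EBPβ binds the same DNA letters as C/EBPα. PU.1 also lies at many active promoters, where GC-rich letters bound by SP and KLF factors are common.

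The sequences shown are those the results turn on. They are 200-bp bins of mm9 (NCBIM37), read on the plus strand. The bin with the most PU.1 reads at 12 hpi, chr9:58653801-58654000, lay between genes 17418 bp upstream of *Hcn4*, and capitals mark the ETS core GGAA on either strand.
Hcn4 upstream: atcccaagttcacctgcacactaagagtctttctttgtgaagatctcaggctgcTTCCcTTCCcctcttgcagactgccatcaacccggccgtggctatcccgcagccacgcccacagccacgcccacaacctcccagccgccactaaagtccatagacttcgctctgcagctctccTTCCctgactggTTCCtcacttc
The 3 bins with the most PU.1 reads at 12 hpi among those holding the PU.1 consensus GAGGAAGT, which is in capitals on either strand, were chr13:3968201-3968400, between genes and 23706 bp upstream of *Ucn3*, chr17:7466601-7466800, in an intron of *Rps6ka2*, and chr2:26209201-26209400, in an intron of *Card9*, which encodes an adaptor of antifungal signalling in myeloid cells.
Ucn3 upstream: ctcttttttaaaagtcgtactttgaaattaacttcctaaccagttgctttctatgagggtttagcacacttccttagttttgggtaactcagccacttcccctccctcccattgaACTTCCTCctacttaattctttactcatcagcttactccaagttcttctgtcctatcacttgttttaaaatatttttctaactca
Rps6ka2 intron: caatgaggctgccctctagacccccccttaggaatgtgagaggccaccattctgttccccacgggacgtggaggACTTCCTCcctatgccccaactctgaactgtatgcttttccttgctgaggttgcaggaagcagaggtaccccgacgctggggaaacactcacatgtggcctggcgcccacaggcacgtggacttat
Card9 intron: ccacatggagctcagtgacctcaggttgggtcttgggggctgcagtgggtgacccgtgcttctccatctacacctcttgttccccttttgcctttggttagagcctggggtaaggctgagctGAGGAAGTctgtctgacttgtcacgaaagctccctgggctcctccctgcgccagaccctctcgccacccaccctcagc
The 2 bins with the most C/EBPα reads at 12 hpi among those with the C/EBP consensus TTGCNNAA, in capitals, were chr9:9098001-9098200 in an intron of *Arhgap42* and chr7:71041801-71042000 in an intron of *Klf13*.
Arhgap42 intron: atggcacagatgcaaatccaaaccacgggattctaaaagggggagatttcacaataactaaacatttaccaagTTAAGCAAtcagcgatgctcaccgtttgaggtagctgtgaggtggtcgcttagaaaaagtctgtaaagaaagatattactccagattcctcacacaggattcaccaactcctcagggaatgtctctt
Klf13 intron: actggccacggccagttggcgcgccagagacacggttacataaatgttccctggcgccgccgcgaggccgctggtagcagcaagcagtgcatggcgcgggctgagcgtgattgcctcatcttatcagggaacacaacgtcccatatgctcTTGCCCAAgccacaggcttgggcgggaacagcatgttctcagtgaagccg
Of the bins close to a transcription start site (TSS), 2 with the SP/KLF letters GGGCGG, in capitals, are shown from introns of *Cbll1* (chr12:32183801-32184000, 518 bp from the TSS) and *Zfp385a* (chr15:103170201-103170400, 214 bp from the TSS).
Cbll1 intron: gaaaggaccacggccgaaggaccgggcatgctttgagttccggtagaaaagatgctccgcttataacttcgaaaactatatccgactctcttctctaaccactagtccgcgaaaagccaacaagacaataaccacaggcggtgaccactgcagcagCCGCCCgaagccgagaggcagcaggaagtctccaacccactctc
Zfp385a intron: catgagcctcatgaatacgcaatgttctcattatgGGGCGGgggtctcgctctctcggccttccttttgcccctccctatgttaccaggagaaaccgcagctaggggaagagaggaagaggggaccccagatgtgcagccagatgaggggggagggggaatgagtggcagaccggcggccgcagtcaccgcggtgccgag
At the *Card9* bin, PU.1 reads were 2.84, 7.60, 15.9 (9.24 to 25.4), 3.52 and 3.82 at 0, 3, 12, 24 and 48 hpi. The *Ucn3* bin had 2.84, 4.56, 16.8 (9.96 to 26.6), 3.52 and 3.82 reads at the same times.

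The PU.1 levels of the 449 bins at 12 hpi lay close above the limit that defined them. They ranged from 12.1 to 26.1 scaled reads with a median of 13.1. In 192 bins the level was 12.1, which stands for 13 reads in the library and is the lowest that could pass, and 350 bins (77.95%) had 13 to 15 reads. Only 5 bins reached 20 scaled reads. Just outside the limit, 324 further bins with 11.2 reads at 12 hpi satisfied the rest of the rule. At 0, 24 and 48 hpi the medians were 1.42, 2.64 and 1.91, and at these times the levels just inside the limit were 2.84, 3.52 and 3.82 and those just outside 4.25, 4.41 and 4.78. One bin had no read at any of the 3 times. The exact Poisson interval of the 12 hpi level lay above those of 0, 24 and 48 hpi together in 56 bins, and in 128, 204 and 221 bins when each time was taken alone. In the remaining 393 bins it overlapped the interval of at least 1 of the 3 times. These counts describe the values that chose the bins, a choice that favours separate intervals, and nothing is drawn from them.

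**Figure D1:**
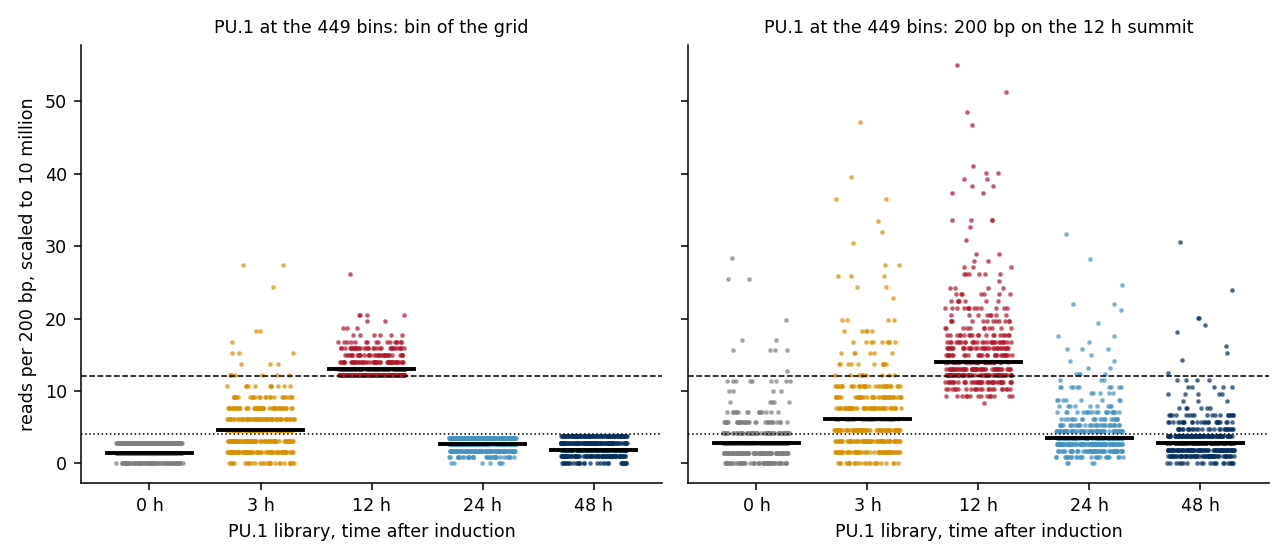
PU.1 reads per 200 bp, scaled to 10000000, in the 5 libraries, with 1 point per bin, the median as a bar, and dashed and dotted lines at 12 and 4 reads. In the bins of the grid (left) the levels at 0, 24 and 48 h stop at 4 by the rule, while in windows moved onto the 12 h summit (right) 252 of the 449 exceed 4 at one of these times and the 12 h median is 14.0.

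The label of sites seen at 12 hpi alone held for part of the bins, since many had PU.1 signal of other times beside them. An adjoining bin had more than 4 reads at 0, 24 or 48 hpi in 331 cases and 12 or more in 69. Taken singly, an adjoining bin had 12 or more reads at 0, 24 and 48 hpi in 8.46%, 12.7% and 7.57% of the 449 bins, and in 29.2%, 35.4% and 32.7% of 26632 other bins with 12 to under 17 reads at 12 hpi (called weak bins). The rule kept the 449 bins low at these times and not the weak bins, and the part of that choice in the difference was not tested. For 134 bins another bin within 1 kb had 12 or more reads at 0, 24 or 48 hpi, and 315 bins had no such neighbour. Windows of 200 bp were then placed on the 12 hpi summit of each bin, the position inside it with the most reads within 50 bp. Of these windows, 144 still met the rule, 252 had more than 4 reads at 0, 24 or 48 hpi and 27 had 12 or more. Their mean PU.1 levels were 3.40, 7.07, 15.99, 4.60 and 3.60 at 0, 3, 12, 24 and 48 hpi. When the grid was moved by 100 bp, 448 bins met the rule, but they overlapped only 60 of the 449 (13.4%). The regions are therefore called by their rule and not treated as sites present at a single time.

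The mean signal across the bins showed the same. At 12 hpi it was 13.3 scaled reads per 200 bp next to the centre, 7.49 at 175 bp and 3.38 at 475 bp. At 0, 24 and 48 hpi the mean was lower next to the centre (1.82, 2.60 and 2.25) than at 175 bp (3.71, 4.83 and 3.28), so that the bins sat in a dip between shoulders at these times. The dip is where the rule required low values. At 3 hpi, which the rule did not use, the level was 4.84 next to the centre and 5.36 at 175 bp.

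**Figure D2:**
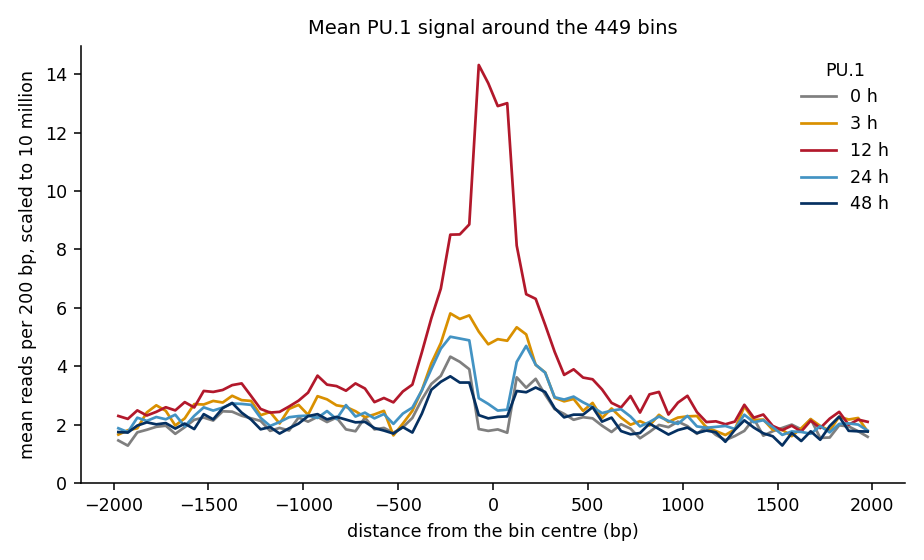
Mean PU.1 reads, scaled to 10000000 and given per 200 bp, in steps of 50 bp up to 2 kb on either side of the centres of the 449 bins, 1 line per library. The 12 h line peaks at the centre, the 3 h line is flat across the bin at about 5 reads, and the lines of 0, 24 and 48 h dip at the centre.

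Both strands contributed reads at 12 hpi. The bins held 3201 reads of the plus and 3282 of the minus strand, and 384 bins had 3 or more reads of each strand within the bin. In 427 bins the minus-strand reads lay downstream of the plus-strand reads within 600 bp, with a median offset of 192 bp, an order that the inward move of the reads before counting favours. The level was a median of 7.54-fold that of the surrounding 10 kb and at least 4-fold in 351 bins. This ratio uses the 12 hpi level that chose the bins, so nothing is drawn from it. In 14 bins all reads came from a single strand.

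The rule was also applied with another time in the place of 12 hpi. It gave 415 bins for 0 hpi, 32 for 24 hpi and 320 for 48 hpi, which is 1.01%, 0.0678% and 0.690% of the bins with 12 or more reads at those times. The share for 12 hpi was between those of the other libraries, but the libraries differed in depth. With all PU.1 libraries thinned to the reads of the smallest, the numbers were 528, 1203, 217 and 617 for 0, 12, 24 and 48 hpi. By number 12 hpi had the most, as it did with all reads (449). The shares of bins with 12 or more reads were not computed for the thinned libraries. The 12 hpi library had the most bins with 12 or more reads (69571, against 40902 to 54858 in the other 4) and the largest share of reads in such bins (20.05%, against 12.8% to 17.02%). When each of the 4 other libraries was left out of the rule in turn, with the remaining 3 held to 4 or less, the library left out had more than 4 reads in 46.6% of 350 bins for 0 hpi, 58.4% of 449 for 3 hpi, 75.8% of 774 for 24 hpi and 41.4% of 319 for 48 hpi. Over all 69571 bins with 12 or more reads at 12 hpi, the shares above 4 were 87.1%, 92.5%, 95.9% and 88.4% at these times, where the remaining 3 times were not held low.

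The PU.1 library of 3 hpi gave the measurement of PU.1 that was free of the rule. It had more than 4 reads in 262 of the 449 bins (58.4%, 95% interval 53.6% to 63.0%), and the other 187 had 4 or less. The share over all bins with 12 or more reads at 12 hpi was 92.5%. Among the 26632 weak bins, of like height at 12 hpi, it was 85.3%, whose interval (84.9% to 85.7%) does not meet that of the 449. A level of 12 or more at 3 hpi was found in 19 bins (4.23%, 2.57% to 6.53%), against 62.0% of all bins with 12 or more at 12 hpi. The median at 3 hpi was 4.56 reads in the 449 bins and 9.12 in the weak bins. The rule held the 449 bins to 4 or less at 0, 24 and 48 hpi and not the weak bins, whose means at these times were 8.70, 9.75 and 9.54. The part of that choice in the lower level at 3 hpi was not tested. At a mean of 4.94 (4.69 to 5.20), the level at 3 hpi was above the mean of all bins (0.82). Bins high at 0 hpi alone had more than 4 reads at 3 hpi in 73.0% of cases (68.5% to 77.2%), and those of 48 hpi in 23.1% (18.6% to 28.1%). The share of the 449 bins stood between these groups. Mean levels at 3 hpi were 7.24, 2.90 (32 bins, 2.22 to 3.72) and 2.42 in the bins of 0, 24 and 48 hpi alone. The groups were not matched in level, and their shares were not computed in the other processing settings.

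The bins with the highest PU.1 levels at 12 hpi were looked at singly, first with the levels in the bins of the grid. The *Hcn4* bin, upstream of a gene for a pacemaker ion channel, had 2.84, 6.08, 26.1 (17.4 to 37.8), 3.52 and 0.955 reads at 0, 3, 12, 24 and 48 hpi. It rose to the highest level of all 449 bins at 12 hpi, on 28 reads. In an intron of *Rad51l1*, a recombination gene (chr12:80713201-80713400), the levels were 0, 6.08, 19.6 (12.1 to 30.0), 0 and 1.91. This bin had no read at 0 and 24 hpi. In an intron of *Gpr97*, an adhesion receptor gene (chr8:97568201-97568400), they were 2.84, 4.56, 20.5 (12.9 to 31.1), 3.52 and 3.82, and 16034 bp upstream of *Fam131c* (chr4:140908001-140908200) 2.84, 6.08, 20.5, 3.52 and 0. Other bins of this height had higher levels at 3 hpi. In an intron of *Prkd3*, encoding protein kinase D3 (chr17:79414201-79414400), the levels were 2.84, 24.3, 20.5, 3.52 and 0.955. Between genes on chromosome 1 (chr1:104700001-104700200), with *Cdh20* as the nearest gene 1965005 bp away, they were 2.84, 12.2, 20.5, 3.52 and 2.87. Near *Nfil3*, a bZIP repressor gene (chr13:53057801-53058000, 18541 bp downstream of the TSS), they were 1.42, 10.6, 19.6, 2.64 and 3.82, and this bin had another within 1 kb with 12 or more reads at 0, 24 or 48 hpi.

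The remaining bins of the top 10 lay in genes. In an exon of *Egln2*, an oxygen-sensing prolyl hydroxylase (chr7:27950001-27950200), PU.1 had 3.04 reads at 3 hpi and 18.7 (11.4 to 28.8) at 12 hpi. In *Cbll1*, which encodes a ubiquitin ligase, the values were 6.08 and 18.7, with a bin within 1 kb that had 44.0 reads at 0 hpi and 58.3 at 48 hpi, and in an intron of *Dtna*, a dystrobrevin gene, 10.6 and 18.7. In windows on the 12 hpi summit, PU.1 exceeded 4 reads at *Hcn4*, *Cdh20* and *Gpr97* (4.25 each at 0 hpi). It also did so at *Prkd3* (8.81 at 24 hpi), *Egln2* (6.17 at 24 hpi), *Cbll1* (6.17 at 24 hpi, 5.73 at 48 hpi) and *Dtna* (4.25 at 0 hpi, 5.29 at 24 hpi). The windows at *Rad51l1*, *Fam131c* and *Nfil3* stayed at 4 or less at 0, 24 and 48 hpi. None of the 10 held GAGGAAGT, but 9.13% of the 449 bins did, so 10 bins are too few to tell a difference. Its shorter form AGGAAGT was found in the *Cbll1* and *Dtna* bins and in 16.9% of the 449. The highest levels at 3 hpi, 27.4 reads each, occurred between genes 79508 bp from *Bcas1* (chr2:170152401-170152600, 14.0 at 12 hpi) and in an exon of *Sfpq*, a splicing factor gene (chr4:126704801-126705000, 17.7 at 12 hpi), the latter with a bin within 1 kb that had 12 or more reads at 0, 24 or 48 hpi. At both, as at *Prkd3*, the level at 3 hpi was above that at 12 hpi, but with overlapping intervals.

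C/EBPα and C/EBPβ, whose libraries had no part in the rule, reached 12 reads at few of the 449 bins, and more than 4 at more of them. C/EBPα had 12 or more reads at 12 hpi in 20 bins (4.45%, 2.74% to 6.80%), compared with 12.6% of all bins with 12 or more PU.1 reads at 12 hpi and 7.26% of the weak bins (6.95% to 7.58%). Without the 24 hpi PU.1 library in the rule the share was 8.26% of 2216 bins (7.15% to 9.48%), which meets that of the weak bins. The interval also met it with scaling to reads on chromosomes 1 to 19 (4.90%, 3.10% to 7.32%) and with a lower threshold of 3 (4.93%, 2.39% to 8.87%). It did so too with an upper threshold of 15 (3.08%, 0.375% to 10.7%), and stayed below in the other processing settings. More than 4 C/EBPα reads at 12 hpi were found in 131 bins (29.2%, 25.01% to 33.6%), compared with 35.3% of the weak bins (34.8% to 35.9%) and 3.04% of all bins. For C/EBPβ more than 4 reads were found in 90, 57, 53, 71 and 67 bins at 0, 3, 12, 24 and 48 hpi. These were 20.04%, 12.7%, 11.8%, 15.8% and 14.9% of the 449 bins. The shares of the weak bins were higher, 25.4%, 18.2%, 18.5%, 23.99% and 24.8%, and the intervals did not meet. In these C/EBPβ libraries 4 scaled reads or less stood for at most 1 read at 0, 12 and 24 hpi. At 3 and 48 hpi they stood for at most 2 reads, so the counts are not compared between times. In the order 0 hpi, 10, 30 and 60 min, 3, 12, 24 and 48 hpi, C/EBPα had 12 or more reads in 1, 3, 11, 11, 19, 20, 7 and 4 of the 449 bins. The shares over all 12 hpi PU.1 bins were 1.38%, 2.94%, 7.86%, 7.99%, 9.74%, 12.6%, 8.28% and 7.26%. For C/EBPβ at 0, 3, 12, 24 and 48 hpi the numbers were 6, 7, 11, 15 and 13 bins, against 1.69%, 4.44%, 6.55%, 10.8% and 11.2%. At least 1 of the 13 C/EBP libraries reached 12 reads in 44 bins (9.80%, 7.21% to 12.9%), and in 15.9% of the weak bins (15.5% to 16.4%). The weak bins also had more PU.1 at the other times (means of 8.70 to 10.3 at 0, 3, 24 and 48 hpi), and the part of this difference in the C/EBP shares was not tested. Libraries differed in depth. In the C/EBPα libraries, in the same order of times, 12 scaled reads required 11, 30, 16, 24, 14, 8, 10 and 10 reads. The C/EBPβ library of 12 hpi required 4. Reads were 50 bases long in the C/EBPα libraries of 10, 30 and 60 min and 36 in the other C/EBPα libraries. The numbers of bins with 12 or more reads are therefore not compared between times.

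**Figure D3:**
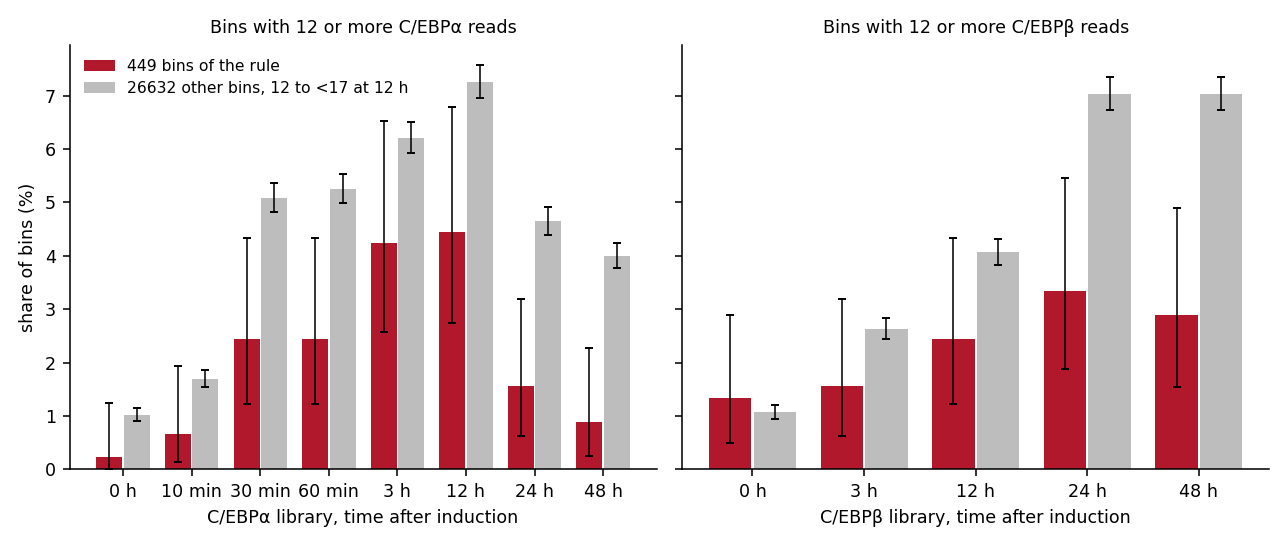
Share of bins with 12 or more scaled reads of C/EBPα (8 libraries, left) and C/EBPβ (5 libraries, right), with exact 95% intervals, for the 449 bins and for 26632 other bins with 12 to under 17 PU.1 reads at 12 h. The 449 bins reach 4.45% for C/EBPα at 12 h against 7.26%, and only for C/EBPβ at 0 h is their share the higher one, with overlapping intervals.

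Mean C/EBPα levels at the 449 bins, in the same order of times, were 1.91, 1.48, 2.15, 2.26, 3.37, 3.65, 2.90 and 2.35 reads, highest at 12 hpi, and in the weak bins 2.16, 2.01, 3.44, 3.47, 4.30, 5.01, 4.02 and 3.57, highest at 12 hpi as well. The place of the highest mean depended on the kind of bin: it was 3.35 at 3 hpi and 3.20 at 12 hpi in the 357 bins with under 60% GC, and 3.50 and 3.23 in the 328 bins beyond 1 kb of a TSS. In bins of the genome with 60% GC or more and under 12 PU.1 reads at every time, the 12 hpi library had the most C/EBPα reads, 2.15 against 0.870 to 1.86 in the other C/EBPα libraries, and the part of this in the means was not tested. C/EBPβ means were 2.05 at 0 hpi and 2.83 at 48 hpi, and in the weak bins 2.40 and 4.95. The means differed between bins by the choice of the 44, which needed 12 or more reads in a C/EBP library, while the other 405 had under 12 in all. The mean C/EBPβ level of the 44 was 4.62 at 0 hpi and 11.6 at 48 hpi, and that of the 405 was 1.77, 1.47, 1.57, 1.73 and 1.89 at 0, 3, 12, 24 and 48 hpi. The mean C/EBPα level of the 44 was 3.41 at 0 hpi, 14.99 at 3 hpi and 12.3 at 12 hpi, and that of the 405 was 1.74, 2.11 and 2.71. C/EBPα was highest at 3 hpi in 15 and at 12 hpi in 10 of the 33 bins that had 12 or more C/EBPα reads at some time. PU.1 had more than 4 reads at 3 hpi in 33 of the 44 bins (75%, 59.7% to 86.8%) and in 56.5% (51.6% to 61.4%) of the 405. The letters TTGCNNAA occurred in 11 of the 44 (25%, 13.2% to 40.3%) and in 8.40% (5.88% to 11.5%) of the 405.

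The strongest C/EBPα signal lay in the *Arhgap42* intron shown above. C/EBPα had 76.4 reads at 3 hpi, 60.3 at 12 hpi and 12.6 at 48 hpi there, and C/EBPβ 37.9 at 12 hpi and 72.9 at 48 hpi. PU.1 reads were 0, 7.60, 12.1 (6.46 to 20.8), 2.64 and 2.87. In the *Klf13* intron C/EBPα had 16.9 reads at 0 hpi, 56.9 at 30 min, and 50.3, 33.5 and 26.4 at 3, 12 and 48 hpi. PU.1 was at 2.84, 7.60, 14.0, 3.52 and 2.87 there. Both bins hold the C/EBP consensus and neither holds GAGGAAGT. Between genes near *Cldn17* (chr16:88408601-88408800) C/EBPα had 53.9 reads at 3 hpi and 26.8 at 12 hpi, C/EBPβ 31.0 at 12 hpi, and PU.1 15.2 at 3 hpi and 13.1 at 12 hpi. At these 3 bins the C/EBPα level was higher at 3 than at 12 hpi. The 3 hpi level lay inside the 12 hpi interval at *Arhgap42* (42.2 to 83.5) and *Klf13* (20.5 to 51.7), and above it at *Cldn17* (15.3 to 43.5). The level was lower at 3 hpi at the start of *Psmg1*, a proteasome assembly gene (chr16:96212601-96212800), with 3.59 and 21.8 (11.6 to 37.2) reads. The same held in an intron of *Acvr2b*, an activin receptor gene (chr9:119334401-119334600), with 4.49 and 20.1 (10.4 to 35.1). Intervals of the C/EBPα levels at 3 hpi were not computed, so the order of the times at single bins is given as a description. In an intron of *Cmpk1*, a nucleotide kinase gene (chr4:114643601-114643800), C/EBPβ had 27.6 reads at 12 hpi (11.9 to 54.3). C/EBPα had 8.37 there (2.72 to 19.5), and the intervals overlap. At 3 hpi the order was the reverse, with 22.2 reads of C/EBPβ and 26.96 of C/EBPα. The antibodies differ, so the 2 factors are not ranked.

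Promoters were more frequent among the 449 bins than among other 12 hpi bins, most often among those beside signal of other times. A protein-coding TSS was within 1 kb of 121 bins (26.9%, 22.9% to 31.3%), compared with 18.9% of all bins with 12 or more PU.1 reads at 12 hpi and 2.36% of all bins of the genome. With an upper threshold of 15 it was 23.1% (13.5% to 35.2%), and with a lower threshold of 3 it was 24.6% (18.87% to 31.2%). Both intervals include 18.9%, while those of the other processing settings stayed above it. The share was 38.1% (29.8% to 46.8%) in the 134 bins with 12 or more reads of another time within 1 kb, but 22.2% in the 315 without, whose interval (17.8% to 27.2%) includes 18.9%. That 18.9% covers 12 hpi bins with and without such neighbours. Weak bins had 18.9% too (18.5% to 19.4%), and bins with 12 or more reads at 0, 12, 24 and 48 hpi 15.97%. The bins high at 0 hpi alone and at 48 hpi alone had 1.45% (0.532% to 3.12%) and 2.50% (1.09% to 4.87%), and neither interval meets that of the 449 bins. Exons held 77 of the 449 bins (17.1%, 13.8% to 20.96%), against 10.1% of the weak bins (9.73% to 10.5%) and 3.09% of all bins. Introns and intergenic DNA held 186 bins each (41.4%, 36.8% to 46.1%), against 46.1% and 43.9% of the weak bins. The median distance to a TSS was 8306 bp, and 87 bins lay beyond 50 kb. The bins had 435 different nearest genes, with at most 2 bins for each, and were spread over all 19 chromosomes with 11 to 36 on each.

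Bins within 1 kb of a TSS differed in sequence from the 328 farther away. GAGGAAGT was found in 4 of the 121 (3.31%, 0.908% to 8.25%) and in 37 of the 328 (11.3%, 8.07% to 15.2%), and its shorter form AGGAAGT in 7.44% (3.46% to 13.7%) and 20.4% (16.2% to 25.2%). SP/KLF letters GGGCGG were present in 30.6% (22.5% to 39.6%) and 7.93% (5.24% to 11.4%). Mean GC content was 59.5% near a TSS and 47.7% elsewhere. The PU.1 levels of both kinds of bin had means of 13.3 and 13.5 at 12 hpi, and PU.1 exceeded 4 reads at 3 hpi in 55.4% (46.1% to 64.4%) and 59.5% (53.9% to 64.8%). C/EBPα means at 12 hpi were 4.79 and 3.23.

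The share of bins rich in GC was higher among the 449. A GC content of 60% or more was found in 92 of them (20.5%, 16.9% to 24.5%), in 11.3% of the weak bins (10.9% to 11.7%) and in 11.5% of all bins with 12 or more PU.1 reads at 12 hpi. Of the 92 bins, 62 lay within 1 kb of a TSS (67.4%, 56.8% to 76.8%), against 74.97% of the weak bins of this GC content (73.4% to 76.5%). Of the 357 bins with under 60% GC, 59 lay within 1 kb of a TSS (16.5%, 12.8% to 20.8%), against 11.8% of such weak bins (11.4% to 12.2%), so that the intervals overlapped in the first class and did not meet in the second. In bins of the genome with under 12 PU.1 reads at every time and a GC content of 60% or more, the mean level was 0.960, 0.916, 1.58, 1.33 and 0.721 reads at 0, 3, 12, 24 and 48 hpi, so the 12 hpi library had the most reads in such DNA. With 40% to under 60% GC it had the fewest, 0.749 against 0.777 to 0.863 at the other times. The means were 1.12, 1.16, 1.48, 1.37 and 1.10 within 1 kb of a TSS, the highest at 12 hpi, and 0.670, 0.646, 0.619, 0.672 and 0.666 beyond, the lowest at 12 hpi, where 328 of the 449 bins lay. The part of these differences in the shares above was not tested.

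**Figure D4:**
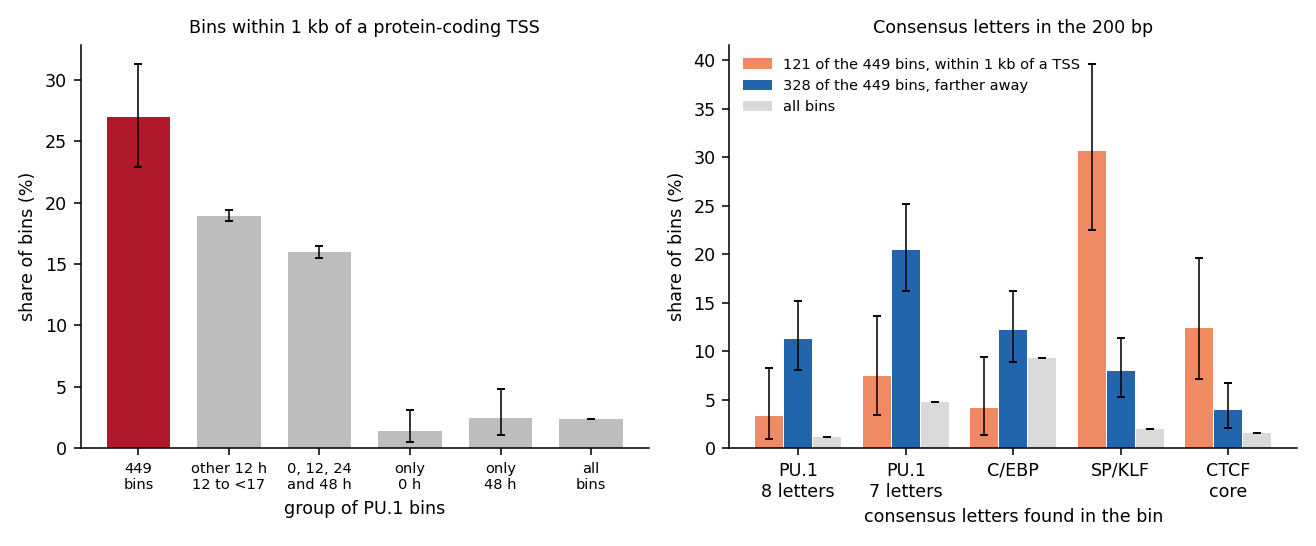
Left, share of bins within 1 kb of a protein-coding TSS for the 449 bins, 2 other groups of 12 h bins, bins high at 0 or 48 h alone and all bins. Right, share of bins holding consensus letters on either strand, for the 121 bins near a TSS, the 328 others and all bins, with exact 95% intervals in both panels. The PU.1 letters are more frequent away from the TSS (11.3% against 3.31%) and the SP/KLF letters near it (30.6% against 7.93%).

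Consensus letters were searched on both strands in the 200 bp of each bin and compared with all 11968110 bins of the genome without undefined bases. GAGGAAGT was present in 41 of the 449 bins (9.13%, 6.63% to 12.2%) and in 1.20% of all bins. In weak bins the share was 12.9% (12.5% to 13.3%), and in bins with PU.1 at 0, 12, 24 and 48 hpi 22.1%, and the intervals of these and of the genome did not meet that of the 449 bins. The difference from the weak bins was not kept in every setting. The interval met that of the same weak bins with the grid moved by 100 bp (9.82%, 7.23% to 12.96%) and with an upper threshold of 15 (9.23%, 3.46% to 19.02%). It also met it with a lower threshold of 3 (10.8%, 6.92% to 15.9%) and with a limit of 4 at 3 hpi as well (10.2%, 6.23% to 15.4%). The interval stayed below that of these weak bins with reads moved 50 bp (9.07%, 6.59% to 12.1%) or 100 bp (8.26%, 5.91% to 11.2%). It also did so with scaling to reads in bins without enrichment (9.25%, 7.77% to 10.9%) and with thinned libraries (8.65%, 7.12% to 10.4%). Without the 24 hpi library it was below as well (7.40%, 6.35% to 8.57%). In 33 of the 41 bins the middle of GAGGAAGT lay within 50 bp of the 12 hpi summit, at a median of 22.5 bp. The 315 bins with no neighbour of another time within 1 kb had GAGGAAGT in 38 cases (12.1%, 8.68% to 16.2%), and the 134 with such a neighbour in 3 (2.24%, 0.464% to 6.40%). The weak bins were not split by neighbours, so neither group is compared with them. C/EBPα had 12 or more reads at 12 hpi in 0 of the 41 bins and in 20 of the 408 without GAGGAAGT. The share over all 449 bins was 4.45%, and 41 bins are too few to tell the groups apart. AGGAAGT was found in 16.9% (genome 4.80%), GAGGAA in 35.9% (18.2%) and GGAA in 94.0% (87.5%), each of which is contained in or overlaps the longer form. The PU.1-IRF letters GGAANNGAA occurred in 12.7% (6.40%).

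Letters of other factors varied in their shares. TTGCNNAA was present in 10.0% of the 449 bins (7.40% to 13.2%) and 9.28% of all bins. The AP-1 consensus TGACTCA was found in 3.79% (2.22% to 5.99%, genome 3.14%), whereas bins high at 48 hpi alone had it in 28.4% (23.6% to 33.7%), an interval that does not meet that of the 449 bins. GGGCGG (14.0%, genome 2.01%) and the CTCF core AGGGGGC (6.24%, 1.58%), both rich in GC, were more frequent than in weak bins, with 9.80% and 3.50%, and the intervals did not meet. RUNX letters TGTGGTT were found in 6.68% (4.73%), EBF1 letters TCCCNNGGG in 4.23% (1.87%), E-box letters CAGCTG in 10.5% (7.37%), and the CRE TGACGTCA in 0.891% (0.111%). STAT letters TTCNNNGAA had 7.13% (7.36%), NF-κB letters GGGANNTTC 2.67% (2.13%), IRF letters GAAANNGAA 5.79% (7.83%) and GATA letters AGATAA 6.90% (13.2%). A match of letters describes the sequence and does not show a bound factor.

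Few of the bins lay near genes of the lists examined, with a listed gene as the nearest within 50 kb. Genes of macrophages and other myeloid cells had 3 of the 449 bins (0.668%), compared with 0.818% of all bins with 12 or more PU.1 reads at 12 hpi. They were 2 bins at *Prtn3*, a granule protease gene (chr10:79340801-79341000 and chr10:79343201-79343400), both with a neighbour within 1 kb of 12 or more reads at 0, 24 or 48 hpi, and 1 near the cytokine gene *Il1b* (chr2:129167801-129168000). The latter lay between genes, 28974 bp downstream of the *Il1b* TSS. At the first *Prtn3* bin PU.1 had 2.84, 7.60, 15.9, 3.52 and 0.955 reads and C/EBPα 10.0 at 12 hpi, and at the *Il1b* bin PU.1 had 2.84, 6.08, 12.1, 3.52 and 0.955. B-lineage genes also had 3 bins (0.542% of all 12 hpi bins). They lay in an intron of *Ptprc*, which encodes CD45, between genes 27507 bp upstream of *Rhoh*, and near *Myb*. The bin 911 bp upstream of *Myb*, a progenitor transcription factor gene (chr10:20881601-20881800), had 1.42, 12.2, 12.1, 2.64 and 0.955 PU.1 reads and was equally high at 3 and 12 hpi.

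Immediate early genes had 3 bins (0.582%), 1 near *Nr4a3* and 2 near *Socs3*, a feedback inhibitor of cytokine signalling. The *Nr4a3* bin (chr4:48042801-48043000) had 2.84, 4.56, 16.8 (9.96 to 26.6), 0.881 and 1.91 reads. Cytokine and NF-κB response genes had 2 (0.397%), the *Il1b* bin and 1 in an intron of *Icam1*, an adhesion molecule. The *Socs3* bins and the *Icam1* bin also had 12 or more reads at 0, 24 or 48 hpi within 1 kb. Of the lists for other cell types, T and NK cell genes had 2 bins, both near *Cd6* (0.161%), and genes of erythroid, megakaryocyte and mast cells had 0 of the 449 (0.106%), with an exact interval up to 0.818%. For each of the 6 lists the share over all 12 hpi bins lay inside the exact interval of the 449 bins.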

How the data were processed

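The data were 18 ChIP-seq libraries, 5 of PU.1, 8 of C/EBPα and 5 of C/EBPβ, with 1 library per factor and time. The authors aligned the reads to mm9 without mismatches with Eland or Bowtie, removed identical and multiply aligned reads, and deposited 1 line per read with chromosome, start, end and strand, not normalized. The submitters' processing notes also name HOMER, and no versions are given in the sources used here. No peak list and no control library was used here.

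One read per position and strand was kept on chromosomes 1 to 19, X, Y and M, which left 6575348 to 11349746 reads per PU.1 library, 5970869 to 24917810 for C/EBPα and 2903580 to 5844202 for C/EBPβ. The 5′ ends were moved 75 bp inward, counted in 200-bp bins from position 0, and scaled to 10000000 reads. At 0, 3, 12, 24 and 48 hpi, 12 scaled PU.1 reads required 9, 8, 13, 14 and 13 reads. Intervals are exact (Poisson for reads, Clopper-Pearson for shares, 95%), and bins that share a library are not replicates. Coordinates count from 1. Each TSS came from a protein-coding transcript of GENCODE vM1, and letters were read from NCBIM37, the same build. Python 3.11.15, numpy 2.4.6, pandas 2.3.3 and scipy 1.17.1 were used, and the counting was tested on simulated data. The bins named are the 10 highest in PU.1 at 12 hpi, the 3 highest at 3 hpi, the 5 highest in C/EBPα and the 3 highest in C/EBPβ at 12 hpi, and up to 3 near genes of each of 6 lists. The bins shown by sequence were picked after their values were seen. The rule, gene lists and letters were chosen with earlier results of these data known. Alternatives concerned the grid, the inward move, duplicate reads, scaling, depth and thresholds.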

Additional observations from a re-analysis of the deposited data

How the results depend on the processing

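The number of bins depended on the thresholds and the scaling, while the shares moved less. Scaling to reads in bins without enrichment gave 1373 bins, of which 45.2% had more than 4 PU.1 reads at 3 hpi and 22.3% lay within 1 kb of a TSS, and numbers of 970 and 62 for bins of 0 and 24 hpi alone. With libraries thinned to the 6575348 reads of the smallest there were 1203 bins, 50.7% of them with more than 4 reads at 3 hpi, and 217 and 617 bins of 24 and 48 hpi alone. Both settings overlapped under 50% of the 449 bins (203 and 205). An upper threshold of 15 left 65 bins, a lower threshold of 3 left 203 (53.2% above 4 at 3 hpi), and a limit of 4 at 3 hpi as well left 187 (2.14% with 12 or more C/EBPα reads at 12 hpi). With 100 bp added on either side, 15.4% of the bins held GAGGAAGT. Of the alternatives chosen after seeing the data, leaving out the library of 0, 24 or 48 hpi gave 1377, 2216 and 817 bins, and windows on the 12 hpi summit left 144. Without the 24 hpi library 65.1% exceeded 4 at 3 hpi and 8.26% had 12 or more C/EBPα reads. Keeping duplicates could not change the bins, since the PU.1 libraries held none. Shifting the grid (448 bins), moving reads 50 or 100 bp (452 and 460 bins) and scaling to reads on chromosomes 1 to 19 moved no share out of its interval, but moves of 50 and 100 bp shared only 192 and 188 of the 449 bins, and the shifted grid 60. No paired analysis was possible because there was 1 library per factor and time. At 12 hpi, 350 of the 449 bins had 13 to 15 reads, and 192 of them the lowest number that could pass, 13, so that 1 read fewer would remove these.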
